A study of Homo sapiens with 12 samples.

Results

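The comparison set MDA-MB-231 cells kept at 1% O2 for 24 hours against the same cells in normoxia, in the line that carried a control short hairpin RNA (shControl). MDA-MB-231 is an established line of human breast cancer cells that lacks the hormone receptors and HER2 amplification and looks mesenchymal. The members and the gene lists below were chosen with earlier results of these data known. The members were taken by label: 3 hypoxia libraries and 3 normoxia libraries, 6 of the 12 in the series. The other 6 came from a line with a hairpin against RIPOR3 (shRIPOR3) in the same oxygen levels, and here they only share the estimate of spread and show where the shControl response differed. The labels give the shControl cells the genotype WT, a medium of DMEM with 10% serum and 1% penicillin and streptomycin, 37 °C and 5% CO2. The control groups thus carry a hairpin too, and whether the line is a clone or a pool is not given in the sources used here. No label ties the replicates to different cultures. The p-values therefore reflect the spread among these libraries alone, which may be technical. The title of the series is about RIPOR3 RNA, METTL3 and m6A in hypoxic breast tumours. The question of this comparison is what lack of oxygen changed in the cells before RIPOR3 was lowered. RIPOR3 itself was scarce in shControl cells, at 0.277, 0.210 and 0.251 CPM in normoxia and 0.804, 0.542 and 0.837 CPM in hypoxia (1.53 ± 0.35), and rose with hypoxia without overlap. In shRIPOR3 cells it had 0, 0 and 1 counts in normoxia and 9, 3 and 11 counts in hypoxia.

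Cells sense oxygen mainly through hydroxylases. With oxygen present, the prolyl hydroxylases encoded by EGLN1, EGLN2 and EGLN3 mark the alpha subunits of the hypoxia-inducible factors (HIF) for the VHL ubiquitin ligase and destruction. Without it the alpha subunits pair with ARNT, recruit the coactivators p300 and CBP and bind DNA at hypoxia response elements, whose core reads ACGTG or GCGTG. The best known targets move cells from respiration to glycolysis, export acid, clear mitochondria, crosslink collagen and attract vessels.

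Levels are CPM, the share of a library's counts scaled to a fixed total with TMM factors, and changes are log2 fold changes of hypoxia over normoxia, each ± its standard error. A gene is said to have risen or fallen where edgeR's quasi-likelihood test gave a Benjamini-Hochberg adjusted p under 0.05. The shallowest normoxia library held 14750734 counts and the deepest 28742565, against 31781324 and 39171440 in hypoxia, and depth thus moved with the oxygen level. No pair of replicates looked like one library deposited again, since their chi-square divided by its degrees of freedom was 2.71 or more. The first principal component of the 6 libraries held 72.2% of the variance and separated the oxygen levels, while the second held 11.6% and set replicate 2 of normoxia apart at -29.2 against 14.1 and 17.0. That library is also the shallowest. A count is a share of its library, so a fall of a gene and a rise of the rest cannot be told apart without an absolute scale, and neither can fewer cells and less RNA per cell.

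Of 15648 genes tested 10143 were called, which is 64.8%, with 5074 higher (32.4%) and 5069 lower (32.4%). The counts of members called in each gene group below are to be read beside these shares. Replicates of the oxygen levels did not overlap in 10520 genes (67.2%). Most changes were small: the median absolute log2 fold change was 0.36, and 2849 of the called genes changed by less than 1.25-fold. Of the 5505 genes that were not called, 2064 had a 95% interval that lay within 1.25-fold either way. Large changes went upward. At least 2-fold increases numbered 1245 (7.96%) and at least 2-fold decreases 112 (0.716%), at least 4-fold changes 155 and 4, and at least 8-fold changes 30 and 1. Among genes with at least 5 CPM in the higher group, the 2-fold counts were 425 and 30.

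The response also followed transcript length, and values for this stand here because they touch many gene groups below. Among 8034 protein-coding genes at 10 CPM or more, the median log2 fold change climbed from -0.43 for merged exon lengths up to 1500 bases (203 genes) through -0.17 above 3000 and up to 6000 bases (3132 genes) to 0.30 above 12000 bases (639 genes). In the shortest class 163 of 203 genes fell, and in the longest 407 of 639 rose. Every normoxia library lay on one side and every hypoxia library on the other in the shortest and longest classes. In shRIPOR3 cells the medians of these classes were -0.33, -0.13 and 0.19. A second fit, added after seeing the data, took the length trend of each library out through offsets, and is called the length offset below. It left 10101 genes called, of which 62.2% were higher against 50% in the first fit. The median of all genes moved up by 0.13. The offsets were not centred, so they also took out each library's general level among genes at 10 CPM or more. A value given with the length offset thus holds this general shift as well as the length part. Of the 10143 calls 8110 stayed in the same direction, and 156 were called in the opposite one. RNA quality was not given in the sources used here, and the part of library preparation or RNA integrity in the length trend was not tested.

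**Figure D1:**
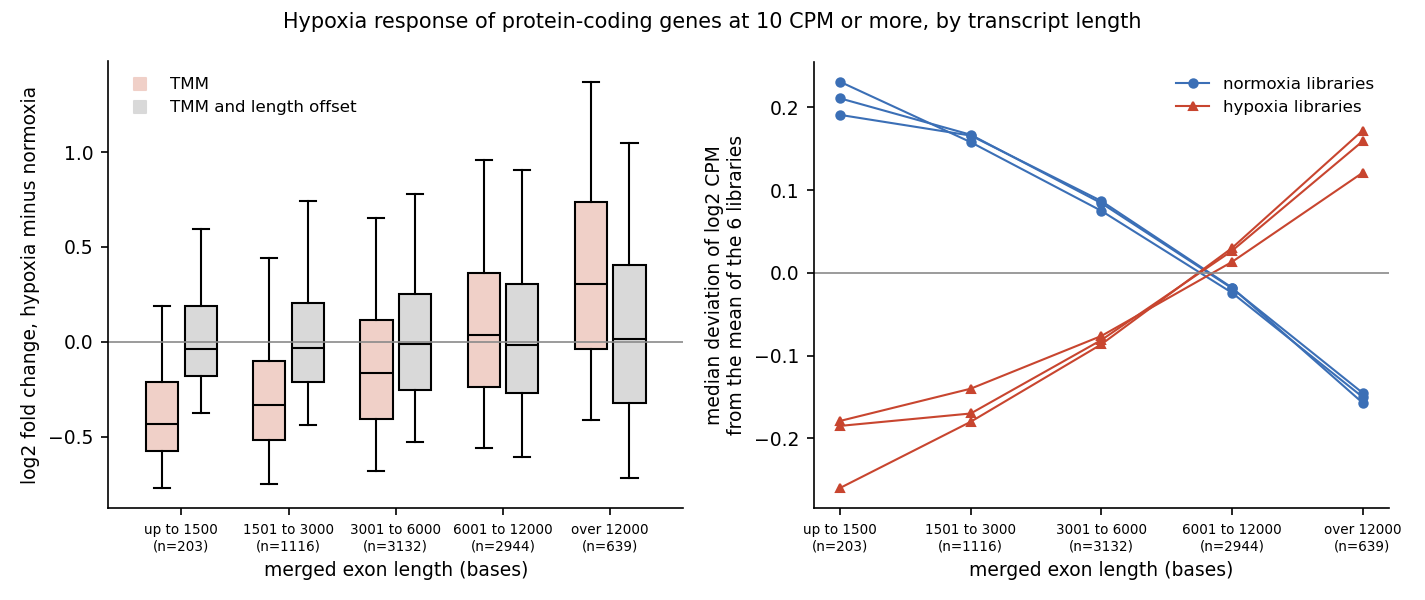
Left, log2 fold change of hypoxia over normoxia for protein-coding genes at 10 CPM or more, by merged exon length in bases, before (pink) and after (grey) the length offset; boxes span the quartiles, the line is the median and whiskers reach the 5th and 95th percentiles. Right, the median deviation of log2 CPM from the mean of the 6 libraries in each class, with a line for each library: short-transcript genes lay high in the 3 normoxia libraries and low in the 3 hypoxia libraries, and the reverse held above 12000 bases.

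Markers of the labelled line and of other cell types were as follows. Of 10 basal and mesenchymal identity genes tested 6 rose and 3 fell, and together they took 0.695 ± 0.0185% of a library in normoxia and 0.959 ± 0.00421% in hypoxia (mean ± SD, n = 3). MSN (moesin, a cortical actin linker) stood at 4848 CPM in normoxia and AXL, a receptor kinase, at 369.6 CPM. Basal KRT14 had 3 and 12 counts over the groups and was not tested. Of 17 luminal epithelial markers 15 were tested, 4 rose (26.7%) and 2 fell (13.3%), below the 32.4% each way over all genes tested. Together the 17 took 0.159 ± 0.00515% of a library in normoxia and 0.149 ± 0.00107% in hypoxia (mean ± SD, n = 3). The luminal keratin genes KRT8 and KRT18 were well expressed, at 989.8 and 403 CPM in normoxia, whereas the receptor gene ESR1 had 10 and 21 counts over the groups. Of 14 leukocyte markers 10 are in the table, 4 passed the count filter and none of these was called. The summed share of the 10 in a library ran from 0.000299% to 0.000421% in normoxia and from 0.000365% to 0.000442% in hypoxia. Of 10 endothelial markers 7 were tested, 4 rose and none fell. CDH5, which encodes VE-cadherin, stood at 2.10, 1.82 and 2.66 CPM in normoxia and 8.18, 8.07 and 8.59 CPM in hypoxia, whereas VWF had 2 and 18 counts over the groups and EMCN was at 0 in all 6 libraries. The part of other cells in these values was not tested. Of 5 fibroblast markers tested, PDGFRB rose by 1.03 ± 0.11 and COL1A1 by 0.35 ± 0.14 (edgeR adjusted p = 0.175 with the length offset, 0.294 without normoxia replicate 1 and 0.14 without hypoxia replicate 1), and THY1 fell (-0.48 ± 0.090); DCN had 2 counts in normoxia and 0 in hypoxia.

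Genes of the oxygen sensor changed in both directions. Of 17 genes of this machinery 9 rose and 7 fell, and ARNT, the constitutive partner subunit, was the exception, at 41.4, 45.1 and 43.6 CPM in normoxia and 41.5, 41.8 and 40.8 CPM in hypoxia. The 3 prolyl hydroxylase genes all rose. EGLN1, which encodes the main HIF prolyl hydroxylase, stood at 10.3, 9.12 and 9.56 CPM in normoxia and 35.3, 33.3 and 34.4 CPM in hypoxia (1.82 ± 0.061, adjusted p = 1.12e-17). EGLN3 was close to silent, at 0.0791, 0.140 and 0.108 CPM in normoxia and 0.438, 0.723 and 0.725 CPM in hypoxia (2.53 ± 0.45), and EGLN2 was at 0.949, 1.12 and 0.575 CPM in normoxia and 2.05, 1.93 and 1.62 CPM in hypoxia (1.16 ± 0.22). In each of these genes every hypoxia library lay above every normoxia library. VHL, the substrate receptor of the ubiquitin ligase, rose from 26.2 to 42.7 CPM (0.70 ± 0.051), but its partners fell: CUL2, the ligase scaffold (-0.35 ± 0.037), RBX1, the RING subunit (-0.39 ± 0.050) and ELOC, an adaptor (-0.29 ± 0.058). The coactivator genes EP300 and CREBBP rose by 1.66 ± 0.041 and 1.45 ± 0.040. EP300 was at 30.6, 31.8 and 31.2 CPM in normoxia and 99.3, 101 and 94.9 CPM in hypoxia, without overlap. CITED2, a HIF-induced protein that competes for the same coactivator domain, rose by 0.66 ± 0.044. HIF1A fell and was at 179.7, 179.7 and 180.2 CPM in normoxia and 63.9, 67.7 and 63.2 CPM in hypoxia, and its antisense transcript HIF1A-AS2 at 4.11, 4.84 and 3.92 CPM in normoxia and 18.6, 18.6 and 15.3 CPM in hypoxia (2.06 ± 0.10). Whether counting used strand is not given in the sources used here, so sense and antisense reads may not be separate where the 2 overlap. EPAS1, the other main alpha subunit, rose and was at 7.71, 8.14 and 7.87 CPM in normoxia and 17.8, 16.7 and 17.5 CPM in hypoxia. Its hypoxic level per length, 2.37 CPM per kb, stayed below the 12.6 CPM per kb of HIF1A. ARNT2 rose little (0.20 ± 0.064), and P4HTM, a transmembrane prolyl hydroxylase, fell (-0.48 ± 0.14) with groups that overlap. Without normoxia replicate 1 P4HTM was not called (edgeR adjusted p = 0.0653), and ARNT2 was not called without normoxia replicate 3 (0.0629) or hypoxia replicate 1 (0.0525). HIF1AN, the asparaginyl hydroxylase that blocks coactivator binding, changed by -0.096 ± 0.041 (edgeR adjusted p = 0.046). The call was lost in several settings. Among them were only the 2 groups fitted (edgeR adjusted p = 0.0794), upper-quartile scaling (0.0974), thinning (0.302) and leaving out normoxia replicate 1 (0.222). With library totals HIF1AN changed by 0.014, and with the length offset by -0.36.

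**Figure D2:**
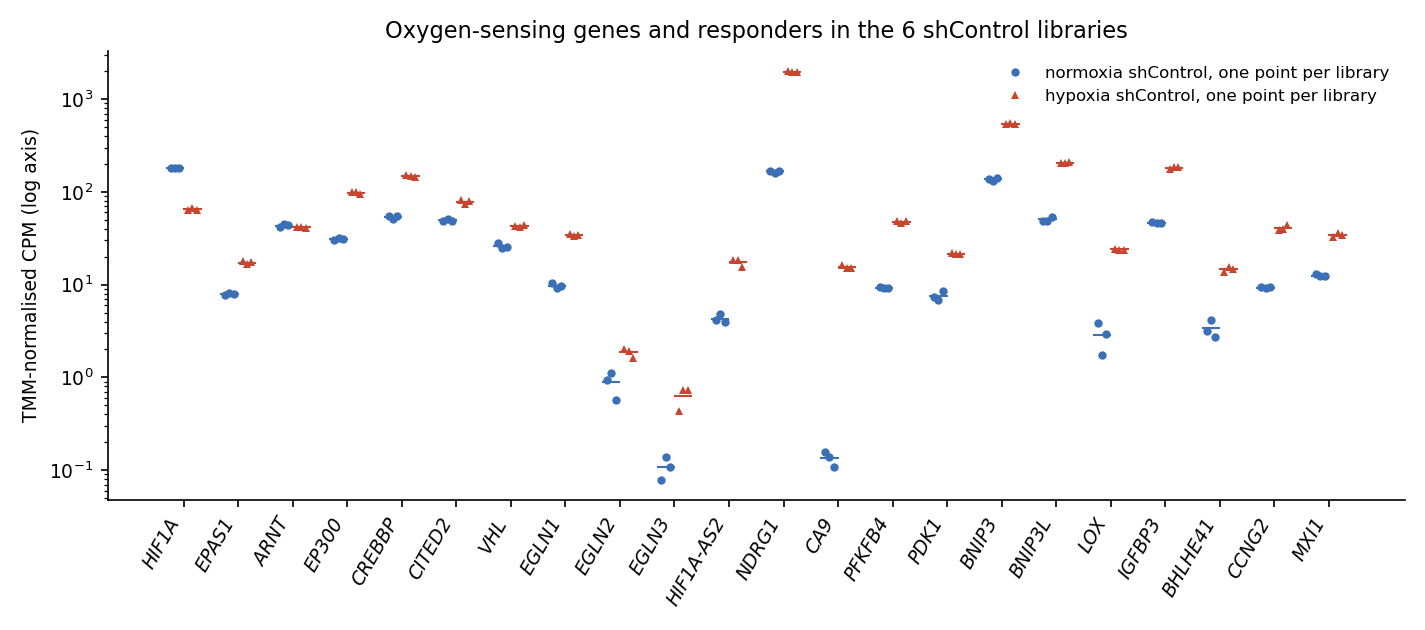
TMM-normalised CPM on a log axis for oxygen-sensing genes and genes that respond to hypoxia, with a point for each of the 3 normoxia (blue circles) and 3 hypoxia (red triangles) shControl libraries and a bar at the group mean. HIF1A was lower in hypoxia, ARNT overlapped between the groups, and in the other 20 genes each hypoxia library lay above each normoxia library. The genes were picked for display and do not stand for the oxygen-sensing list, where 9 of 17 rose and 7 fell. CUL2, RBX1, ELOC, P4HTM and HIF1AN, which fell, are not drawn.

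The largest increases held known HIF targets, genes of membranes and matrix, and noncoding RNAs. By the rule of at least 5 CPM in the higher group and replicates that do not overlap, CA9, the carbonic anhydrase of the cell surface, led with 0.158, 0.140 and 0.108 CPM in normoxia and 16.4, 15.1 and 15.2 CPM in hypoxia. LOX, which crosslinks collagen and elastin, was at 3.88, 1.75 and 2.91 CPM in normoxia and 24.4, 23.8 and 23.7 CPM in hypoxia (2.99 ± 0.11). TPBG, the oncofetal antigen 5T4 of the cell surface, was at 10.96, 10.4 and 10.4 CPM in normoxia and 68.96, 67.8 and 67.2 CPM in hypoxia (2.68 ± 0.057). All hypoxia libraries of these genes stood several-fold above their normoxia libraries. VLDLR, a lipoprotein receptor, rose by 2.60 ± 0.071, TMEM45A by 2.91 ± 0.099 and SPAG4, a SUN-domain protein of the nuclear envelope, from 1.54 to 14.2 CPM. BHLHE40, a transcriptional repressor, stood at 20.8, 21.4 and 21.1 CPM in normoxia and 112, 112 and 109 CPM in hypoxia. Noncoding transcripts among the 20 were MIR210HG, the host of the hypoxia microRNA miR-210, at 0.751, 0.842 and 1.11 CPM in normoxia and 5.65, 5.93 and 6.67 CPM in hypoxia, LINC01293 (2.95 ± 0.18), LINC00342 (2.69 ± 0.10) and the antisense transcripts AC078883.1 (2.81 ± 0.10) and AL365181.3 (2.64 ± 0.15). MIR210HG rose less here than in shRIPOR3 cells (5.27), a difference of -2.56 ± 0.57 (interaction adjusted p = 0.00196 in edgeR).

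A set of textbook HIF targets was looked at beside the largest increases: PGK1, EGLN3, PDK1, BNIP3, P4HA1, KDM3A, PFKFB4 and HIF1A. Genes of both sets are shown only if an ACGTG core lies in the 250 bases before the start. Of the textbook set these are PGK1, BNIP3 and P4HA1. The promoter stretches below show where the core letters lie. They are from RefSeq on GRCh38.p14, read 5′ to 3′ on the gene's strand, and capitals mark ACGTG or GCGTG on either strand (as CACGT or CACGC on the reverse).
CA9: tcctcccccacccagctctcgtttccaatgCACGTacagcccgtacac
PPFIA4: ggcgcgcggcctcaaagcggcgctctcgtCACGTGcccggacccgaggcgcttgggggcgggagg
ANGPTL4: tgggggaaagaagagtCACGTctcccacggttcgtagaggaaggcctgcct
ALDOC: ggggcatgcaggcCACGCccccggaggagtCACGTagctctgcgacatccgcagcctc
MIR210HG: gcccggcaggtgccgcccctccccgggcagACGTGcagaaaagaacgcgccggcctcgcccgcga
BHLHE40: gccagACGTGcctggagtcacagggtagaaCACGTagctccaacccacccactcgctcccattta
PGK1: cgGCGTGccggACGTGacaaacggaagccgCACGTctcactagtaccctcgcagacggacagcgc
BNIP3: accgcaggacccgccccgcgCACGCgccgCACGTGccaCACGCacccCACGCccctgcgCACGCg
P4HA1: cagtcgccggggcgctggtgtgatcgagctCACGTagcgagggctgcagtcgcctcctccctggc
They lie at chr9:35673880-35673927, plus strand, chr1:203026343-203026407, plus strand, chr19:8363905-8363955, plus strand, chr17:28576896-28576953, minus strand, chr11:568593-568657, minus strand, chr3:4979258-4979322, plus strand, chrX:78104035-78104099, plus strand, chr10:131982022-131982086, minus strand and chr10:73096918-73096982, minus strand. The core of CA9 begins 18 bases before the start and that of ANGPTL4 234 bases before it. BNIP3 has 6 cores in its 250 bases and BHLHE40 4. PLA2G4D, TMEM45A and EGLN3 have no core in the window, and RASSF4, VLDLR and PFKFB4 have GCGTG cores alone. NDRG1, TCAF2, SPAG4, LOX, TPBG, HK2, PDK1, KDM3A and HIF1A could not be matched to a single promoter entry. Over the 7876 tested genes that matched a single promoter entry, 63.9% held ACGTG or GCGTG on either strand within 300 bases. So did 62.9% of the 62 of them that were at least 4-fold higher. Of all 35116 RefSeq promoters, with every entry of a gene counted, 48.4% did so. For ACGTG alone, which overlaps its own reverse strand in CACGTG, the shares were 27.6%, 40.3% and 21.4%. The mean GC content of these 3 sets was 64.8%, 62.0% and 57.5%. A match is a string of letters and does not show binding.

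Genes of glucose uptake and glycolysis mostly rose, and the balance of some isoforms moved. Of 20 genes of glucose uptake and glycolysis 17 rose, 1 fell and 2 were not called, with a median log2 fold change of 0.79 against 0.016 over all genes tested. Their summed share of a library went from 1.53 ± 0.00294% to 2.17 ± 0.0315% (mean ± SD, n = 3). HK2, the inducible hexokinase, was at 57.3, 57.7 and 56.98 CPM in normoxia and 289, 305 and 293 CPM in hypoxia, and HK1, the constitutive form, at 412, 401 and 411 CPM in normoxia and 741, 759.9 and 757 CPM in hypoxia. Per kilobase HK2 made up 12.6% to 13.0% of the pair in normoxia libraries and 28.7% to 29.4% in hypoxia libraries. The aldolase ALDOC went from 0.962 to 7.98 CPM per kb and passed ALDOA, at 1.83 and 3.07 CPM per kb. ALDOA shares 42.3% of its exon bases with another gene on the same strand in GENCODE 29, so its count may be incomplete, and the order of the pair is uncertain. LDHA, which makes lactate, stood at 1927, 2104 and 2034 CPM in normoxia and 3581, 3680.4 and 3704 CPM in hypoxia. Its counterpart LDHB was at 1.79 and 1.44 CPM. In LDHB 33.4% of the exon bases are shared in the same way, so its low count may be incomplete too. SLC2A1 and SLC2A3, the glucose transporters GLUT1 and GLUT3, rose by 1.68 ± 0.039 and 1.47 ± 0.053. SLC16A3, the lactate exporter MCT4, rose by 1.16 ± 0.045. The exception was PFKM, the muscle-type phosphofructokinase, which fell (-0.44 ± 0.044).

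Regulators at the branch points moved selectively. PFKFB4, which makes the fructose bisphosphate signal that speeds glycolysis, was at 9.45, 9.12 and 9.27 CPM in normoxia and 48.8, 46.5 and 48.4 CPM in hypoxia (2.36 ± 0.055). PFKFB3, with the same role, was at 68.8, 61.2 and 68.9 CPM in normoxia and 148, 137 and 149 CPM in hypoxia (1.12 ± 0.045). PFKFB2 had 6.61, 7.01 and 7.36 CPM in normoxia and 8.11, 7.29 and 8.06 CPM in hypoxia and was not called, though it was with library totals (0.27, edgeR adjusted p = 0.0186). PDK1, a kinase that shuts the pyruvate dehydrogenase complex, was at 7.32, 6.87 and 8.48 CPM in normoxia and 21.9, 21.4 and 21.5 CPM in hypoxia (1.49 ± 0.073), PDK3 rose by 0.61 ± 0.065, and PDK2 and PDK4 were not called (-0.08 ± 0.058 and -0.0098 ± 0.27). The hypoxia libraries of PFKFB3, PFKFB4 and PDK1 all lay above the normoxia libraries. Genes of the complex fell, with DLD, its dihydrolipoamide dehydrogenase, at -0.63 ± 0.040 and PDHA1, its E1 alpha subunit, at -0.53 ± 0.038. The smaller falls of PDHB, PDHX, DLAT and of the pyruvate carrier genes MPC1 and MPC2 were not called with the length offset, where their log2 fold changes were -0.15, -0.035, -0.049, 0.079 and -0.071. PDP2, the phosphatase that reopens the complex, rose by 0.39 ± 0.062.

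Of 12 glycogen genes tested 7 rose and 3 fell. PPP1R3E, a subunit that targets a phosphatase to glycogen, was at 2.89, 2.67 and 2.41 CPM in normoxia and 9.91, 9.97 and 10.8 CPM in hypoxia, and its relatives PPP1R3D and PPP1R3B rose by 1.11 ± 0.21 and 0.69 ± 0.093. GBE1, the branching enzyme, rose by 1.02 ± 0.040 and PGM1, phosphoglucomutase, by 0.74 ± 0.038, while UGP2 and GYG1, which activate glucose and prime glycogen, fell (-0.36 ± 0.036 and -0.51 ± 0.059). Of 7 pentose phosphate genes 6 fell and none rose (median -0.57, and -0.32 with the length offset). Of 9 genes of acid and CO2 handling 5 rose and none fell, including the carbonic anhydrase CA12 (0.75 ± 0.11).

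**Figure D3:**
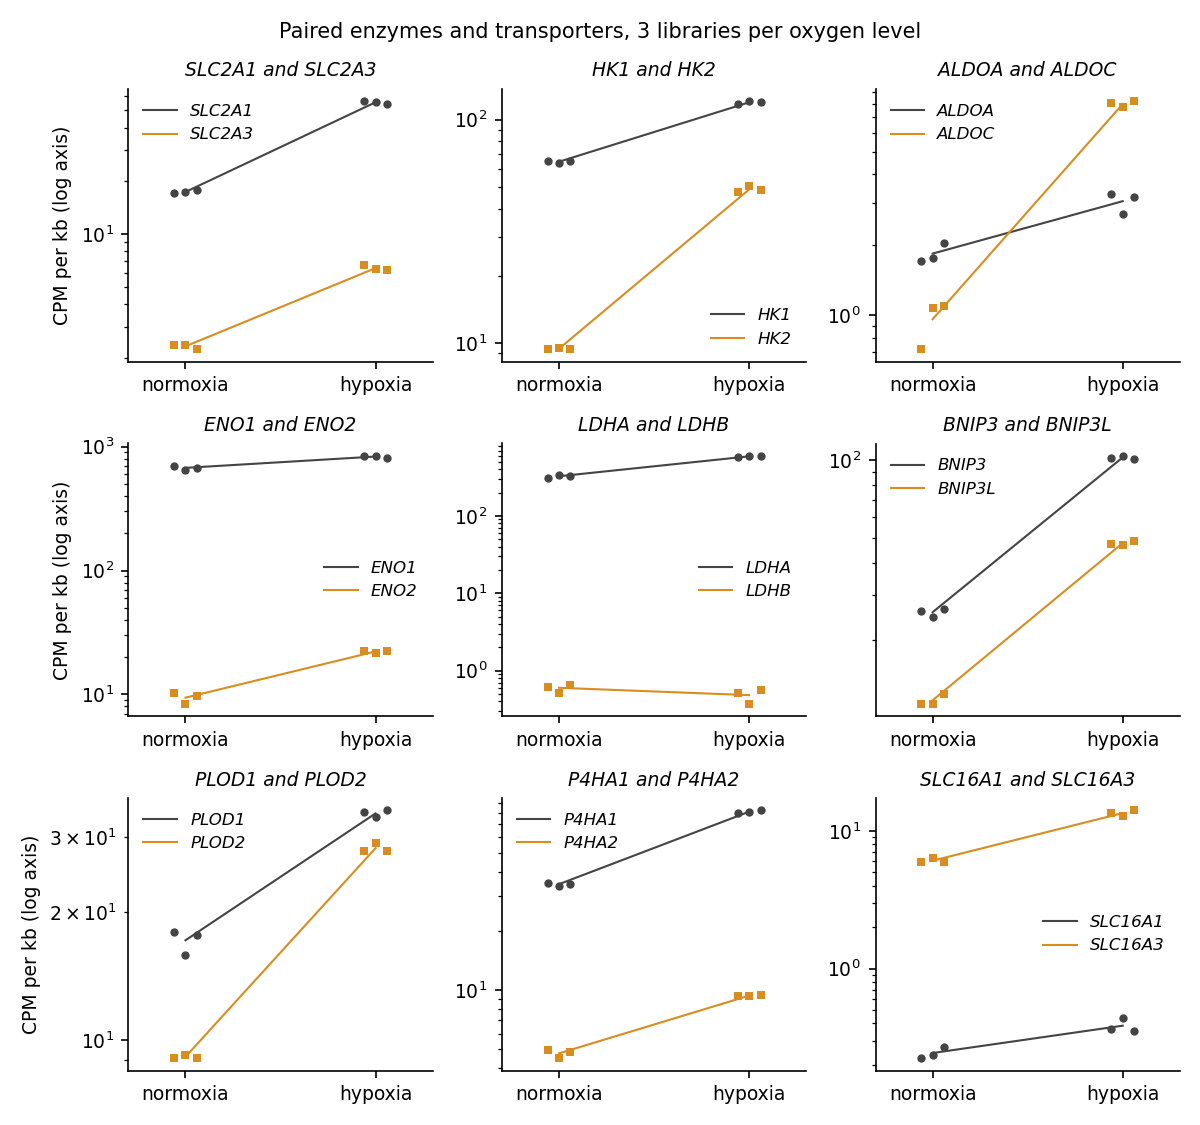
CPM per kb of merged exon length on log axes for 9 pairs of related enzymes, transporters or receptors, with a point for each library and a line between the means of the 3 normoxia and the 3 hypoxia libraries. HK2 and PLOD2 approached their partners in hypoxia, while the SLC2A and BNIP3 pairs rose in near parallel. ALDOC lay above ALDOA in hypoxia, but the ALDOA count may be incomplete, since 42.3% of its exon bases are shared, so their order is uncertain.

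Most nuclear genes of respiration, protein import and the mitochondrial ribosome fell, and the group medians were nearer 0 with the length offset. Part of that move is the general shift, since the median of all genes went from 0.016 to 0.13 with the length offset. Complex I fell in 28 of 36 genes with none higher (median -0.47), complexes II to IV with cytochrome c in 24 of 26 (median -0.54) and ATP synthase in 15 of 16 (median -0.57). With the length offset the medians were -0.13, -0.25 and -0.32, and complex I had 18 of 36 genes lower and 2 higher. CYCS, cytochrome c, was at 744, 752 and 727 CPM in normoxia and 446, 446 and 459 CPM in hypoxia (-0.72 ± 0.043, and -0.58 with the length offset). SDHB, the iron-sulfur subunit of succinate dehydrogenase, fell (-0.75 ± 0.050, and -0.45), as did NDUFS3, a core subunit of complex I (-0.69 ± 0.046, and -0.49), and ATP5G1, a subunit of the ATP synthase ring (-0.92 ± 0.044, and -0.64). COX4I1, the common isoform of cytochrome oxidase subunit 4, fell (-0.50 ± 0.045, and -0.39). NDUFA4L2, a HIF target that replaces NDUFA4 in other cells, had 6 and 10 counts over the groups and was not tested.

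Of 17 tricarboxylic acid cycle genes 12 fell and 1 rose, and 10 and 3 with the length offset. SUCLG1 and SUCLA2, subunits of succinyl-CoA ligase, fell (-0.91 ± 0.039 and -0.64 ± 0.044), as did IDH3A, of isocitrate dehydrogenase (-0.77 ± 0.039) and the cytosolic malate dehydrogenase MDH1 (-0.66 ± 0.053). IDH2, the NADP-linked isocitrate dehydrogenase of mitochondria, rose, at 19.6, 19.7 and 19.3 CPM in normoxia and 29.1, 28.9 and 27.9 CPM in hypoxia. In coenzyme Q synthesis 8 of 13 fell and 2 rose (median -0.24). With the length offset 5 fell and 2 rose (median -0.052), and with library totals 5 fell and 3 rose. COQ3, a methyltransferase, fell (-1.11 ± 0.057, and -0.74 with the length offset), as did PDSS1, which builds the tail (-0.79 ± 0.048, and -0.45). Protein import fell in 24 of 25 genes, with TIMM10, a chaperone of the intermembrane space, at 168.5, 170.3 and 179 CPM in normoxia and 84.7, 85.1 and 79.9 CPM in hypoxia, and HSPD1, the matrix chaperonin HSP60, at -0.77 ± 0.037. Mitochondrial ribosomal proteins fell in 73 of 77 genes with none higher (median -0.58, and -0.29 with 57 lower and 3 higher with the length offset). The deeper falls included MRPL3 (-1.04 ± 0.054), MRPS23 (-0.99 ± 0.044) and MRPS18C (-0.88 ± 0.054). SLC25A12, the aspartate-glutamate carrier, fell (-1.09 ± 0.064).

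Of 16 mitophagy and autophagy genes 8 rose (50%) and 5 fell (31.2%), against 32.4% each way over all genes tested. With the length offset 10 rose and 4 fell. BNIP3, a receptor that ties mitochondria to autophagosomes, was at 139, 131 and 141 CPM in normoxia and 544, 553 and 539 CPM in hypoxia. Its relative BNIP3L was at 48.96, 48.96 and 53.6 CPM in normoxia and 204, 203 and 209.9 CPM in hypoxia, and neither gene's groups overlapped. BNIP3L made up 30.4% to 32.0% of the pair per kilobase in normoxia and 31.2% to 32.5% in hypoxia. ULK1, the kinase that starts autophagy, rose by 1.18 ± 0.095 and ATG14, a subunit of the lipid kinase complex, by 1.05 ± 0.062. FUNDC1, another mitophagy receptor of the outer membrane, fell and was at 35.99, 34.02 and 35.4 CPM in normoxia and 24.9, 24.7 and 26.2 CPM in hypoxia (-0.48 ± 0.049), without overlap, and with the length offset it was not called (-0.097, edgeR adjusted p = 0.0741). PHB2, an inner-membrane prohibitin, fell (-0.68 ± 0.035, and -0.39 with the length offset).

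Genes that make proteins fell as groups. Cytosolic ribosomal proteins fell in 79 of 82 tested with none higher, and their share of a library went from 5.65 ± 0.0823% to 4.17 ± 0.0334% (mean ± SD, n = 3). Their median was -0.52, and -0.27 with 67 lower with the length offset. RPL5, which also binds MDM2, was at 4958, 4721 and 4651 CPM in normoxia and 2822, 3009.8 and 2991 CPM in hypoxia, and RPS7 fell (-0.81 ± 0.045). Ribosome biogenesis fell in 31 of 36 genes and rose in 2, NAT10 (0.17 ± 0.045) and RRP1B (0.15 ± 0.045). RRP9, a protein of the small nucleolar RNP that processes pre-rRNA, was at 136, 124 and 136 CPM in normoxia and 59.1, 53.8 and 62.4 CPM in hypoxia (-1.18 ± 0.050, and -0.81 with the length offset). NIFK, a nucleolar partner of the Ki-67 protein, and POLR1C, a subunit shared by RNA polymerases I and III, fell (-1.06 ± 0.038 and -0.92 ± 0.055). NPM1, the nucleolar chaperone, fell (-0.67 ± 0.049).

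Translation initiation factors fell in 37 of 44 and rose in 2. EIF2B3, a subunit of the exchange factor for eIF2, was at 45.8, 48.5 and 43.4 CPM in normoxia and 21.1, 21.6 and 19.4 CPM in hypoxia. EIF3I, a scaffold subunit, fell (-0.93 ± 0.034), as did EIF4E, the cap-binding protein (-0.74 ± 0.044). The genes that rose encode scaffolds of the cap complex, EIF4G3 (0.81 ± 0.035) and EIF4G1 (0.19 ± 0.039). Cytosolic aminoacyl-tRNA synthetases fell in 16 of 20 with none higher, led by NARS (-0.79 ± 0.041) and RARS (-0.73 ± 0.042); with the length offset 17 fell and 2 rose. EEF1A1, the elongation factor that delivers tRNAs, fell from 6246 to 4136 CPM. Scaling by library totals in place of TMM moved the median of all genes up by 0.11, which enlarges rises and shrinks falls. The size of changes as small as those of RRP1B, NAT10 and EIF4G1 thus depends on the scale.

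The list of the TRiC chaperonin with cytosolic HSP70 and HSP90 had 20 of 24 genes lower and 3 higher, a median of -0.65 and -0.49 with the length offset, and its share of a library went from 4.03 ± 0.0313% to 2.70 ± 0.0559% (mean ± SD, n = 3). HSP90AA1, the inducible HSP90, lost more CPM than any other called gene and stood at 9894, 9955 and 9664 CPM in normoxia and 4809, 4992 and 5165 CPM in hypoxia. HSPA8, the constitutive HSP70, fell (-0.85 ± 0.038), as did CCT3, a TRiC subunit (-1.05 ± 0.040) and CHORDC1, an HSP90 cochaperone (-1.22 ± 0.043, and -1.38 with the length offset). BAG3, an HSP70 cochaperone of selective autophagy, and the stress-inducible HSPA1B rose instead, by 0.41 ± 0.038 and 0.33 ± 0.085; HSPA1B has a near-identical copy, so its count is uncertain. Proteasome subunits fell in 33 of 36 with none higher (median -0.59, and -0.34 with the length offset). The deepest falls included the immunoproteasome subunits PSMB9, at 4.11, 5.26 and 4.78 CPM in normoxia and 2.27, 1.93 and 2.54 CPM in hypoxia, and PSMB8 (-0.87 ± 0.051). In the endoplasmic reticulum 13 of 24 rose and 7 fell: ERO1A, the oxidase that drives disulfide formation, rose by 0.87 ± 0.036, the degradation genes HERPUD1 and SYVN1 by 0.80 ± 0.046 and 0.72 ± 0.073, and the sensor ERN1 by 0.58 ± 0.098, while the sensor ATF6 fell (-0.58 ± 0.039). In the list of ATF4 targets with serine and one-carbon metabolism 12 of 24 rose and 6 fell. DDIT4, an inhibitor of mTORC1 signalling, was at 57.03, 55.8 and 61.04 CPM in normoxia and 269.9, 279 and 276 CPM in hypoxia, CHAC1, which breaks down glutathione, rose by 1.40 ± 0.19, and MTHFD1, of the folate cycle, fell (-0.63 ± 0.034).

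**Figure D4:**
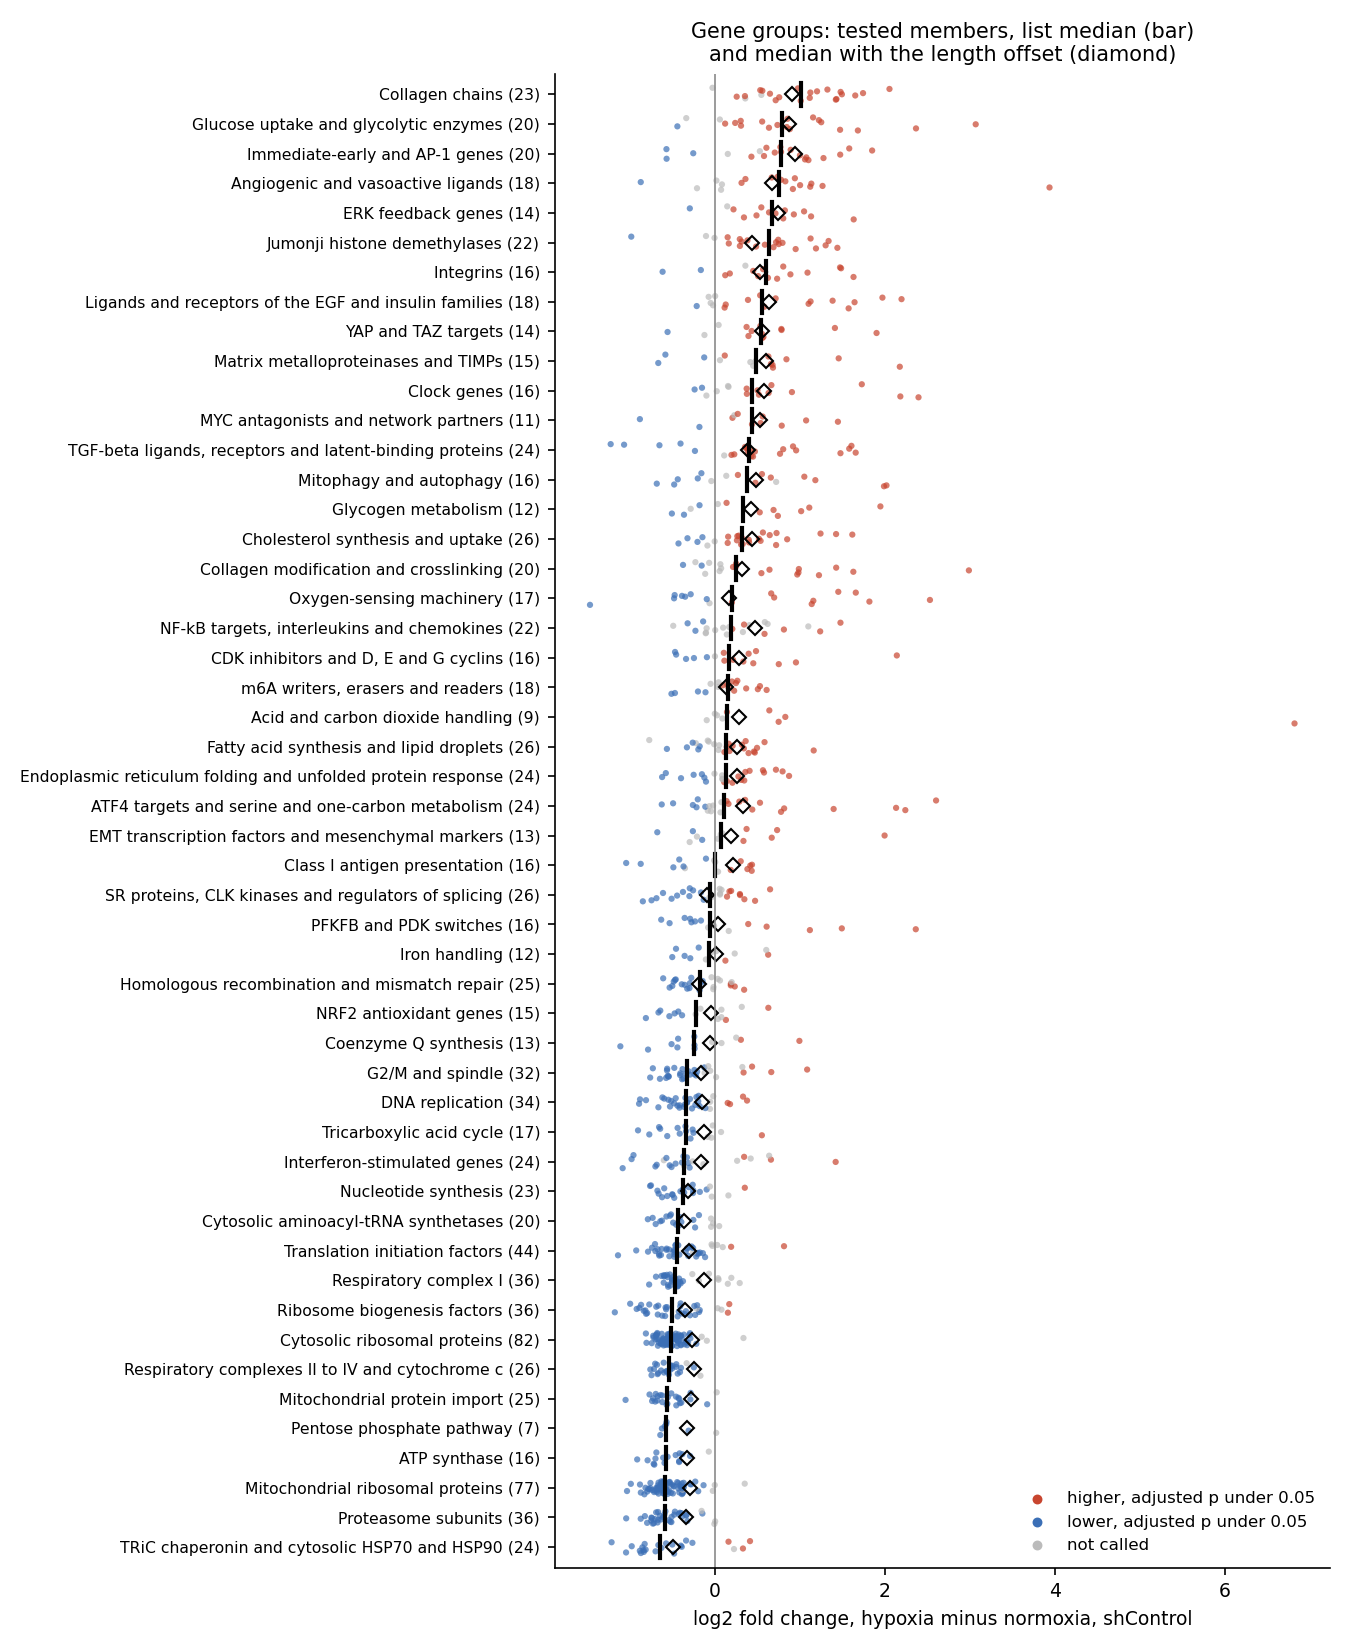
Log2 fold change of hypoxia over normoxia for the tested members of 50 gene groups (number of members in brackets), red where higher and blue where lower at an adjusted p under 0.05 and grey where not called. The black bar is the group median and the open diamond the median with the length offset; collagen chains lie at the top with a median of 1.01 and the chaperone group at the bottom with -0.65.

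Cell-cycle genes fell in part. DNA replication genes were lower in 27 of 34 and higher in 4, with a median of -0.34 (-0.15, 20 lower and 4 higher with the length offset). GINS2 and PRIM2, of the replicative helicase and the primase, fell (-0.89 ± 0.055 and -0.88 ± 0.054), and POLE, the leading-strand polymerase, rose by 0.38 ± 0.037 and was not called with the length offset (adjusted p = 0.150). Of 32 G2/M and spindle genes 23 fell and 4 rose, and 21 and 8 with the length offset. CDC20, an activator of the anaphase-promoting complex, was at 119, 107 and 116 CPM in normoxia and 69.4, 66.4 and 66.8 CPM in hypoxia, and PTTG1, securin, fell (-0.73 ± 0.054). The proliferation marker MKI67 went the other way, at 1029, 1042 and 1031 CPM in normoxia and 2245, 2204 and 2135 CPM in hypoxia, as did CENPF (0.66 ± 0.038); both have long transcripts, and with the length offset their changes were 0.85 and 0.47. Nucleotide synthesis fell in 19 of 23, with PRPS1, at the head of the purine and pyrimidine routes, at -0.75 ± 0.059, and rose in 1, RRM2 (0.35 ± 0.035). Repair genes fell in 15 of 25 and rose in 4: the mismatch gene MSH6 fell (-0.61 ± 0.047), as did the recombination gene RAD51C (-0.53 ± 0.062), whereas BRCA2 rose by 0.34 ± 0.055.

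Of 16 genes for CDK inhibitors and D, E and G cyclins 10 rose and 5 fell. CCNG2, an atypical cyclin that accompanies cell-cycle arrest, was at 9.33, 9.12 and 9.41 CPM in normoxia and 38.7, 40.3 and 44.4 CPM in hypoxia (2.14 ± 0.072), CDKN1A, which encodes p21, rose by 0.75 ± 0.057 and CDK4 fell (-0.46 ± 0.044). Of 11 MYC antagonists and partners 8 rose and 2 fell. MXI1, a repressor that competes with MYC for MAX, was at 12.9, 12.4 and 12.3 CPM in normoxia and 32.4, 36.3 and 34.1 CPM in hypoxia, MNT and MXD1 rose by 1.07 ± 0.083 and 0.79 ± 0.077, and MLX, the partner of glucose-sensing factors, fell (-0.88 ± 0.037). Of 16 clock genes 10 rose and 2 fell: BHLHE41, the sister of BHLHE40, was at 3.16, 4.21 and 2.73 CPM in normoxia and 13.8, 15.3 and 14.9 CPM in hypoxia, RORA, an activator of the clock, rose by 1.73 ± 0.10 and PER2 by 0.91 ± 0.11.

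Of 18 genes of the EGF and insulin families 13 rose and 1 fell. EGFR was at 203, 212 and 209 CPM in normoxia and 613, 633 and 609.8 CPM in hypoxia (1.57 ± 0.037), IGF1R rose by 1.64 ± 0.052 and INSR by 1.39 ± 0.093, and IRS2, an adaptor of both receptors, was at 7.04, 5.61 and 7.76 CPM in normoxia and 32.1, 32.2 and 32.1 CPM in hypoxia. IGFBP3, a secreted binder of insulin-like growth factors, was at 47.1, 46.2 and 45.8 CPM in normoxia and 178, 184 and 185 CPM in hypoxia. In none of EGFR, IRS2 and IGFBP3 did the groups overlap. Of 14 ERK feedback genes 12 rose and 1 fell: the phosphatases DUSP1 and DUSP6 rose by 1.63 ± 0.068 and 1.13 ± 0.064, and the RAS-ERK inhibitors SPRED1 and SPRY1 by 1.05 ± 0.054 and 0.93 ± 0.073. Of 20 immediate-early genes 15 rose and 3 fell. NR4A2, an orphan nuclear receptor, was at 0.910, 0.701 and 1.01 CPM in normoxia and 3.60, 3.89 and 2.32 CPM in hypoxia, KLF4 rose by 1.58 ± 0.11, JUN by 1.08 ± 0.038 and FOSL2 by 1.28 ± 0.042, and FOSL1, which encodes the AP-1 subunit FRA-1, fell from 522 to 352 CPM (-0.57 ± 0.041, and -0.23 with the length offset).

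Of 24 TGF-beta family genes 18 rose and 5 fell. LTBP2 and LTBP1, which hold latent TGF-beta in the matrix, rose by 1.66 ± 0.061 and 1.48 ± 0.065, INHBB, an activin subunit, was at 14.9, 11.9 and 12.6 CPM in normoxia and 40.7, 40.5 and 40.2 CPM in hypoxia, and the inhibitor SMAD7 at 1.03, 1.54 and 1.29 CPM in normoxia and 3.99, 3.64 and 3.57 CPM in hypoxia. The BMP-responsive genes ID3 and ID1 went down, ID3 at 7.87, 8.35 and 7.80 CPM in normoxia and 3.46, 3.25 and 3.46 CPM in hypoxia, while ID1 fell (-0.65 ± 0.077). Of 14 YAP and TAZ targets and partners 11 rose and 1 fell: CTGF, a matricellular growth factor, was at 149.6, 149 and 157 CPM in normoxia and 588, 562 and 557 CPM in hypoxia, LATS2, the kinase that restrains YAP, rose by 1.41 ± 0.072, and ANKRD1 fell (-0.56 ± 0.037, and -0.22 with the length offset).

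Of 23 collagen chain genes tested 20 rose and none fell, with a median of 1.01 (0.91 with the length offset). The other 16 of 39 collagen genes in the counts were too low to test. COL7A1, the anchoring fibril collagen, was at 19.7, 18.5 and 18.6 CPM in normoxia and 77.6, 75.6 and 83.1 CPM in hypoxia. COL4A1, of basement membranes, was at 122, 113 and 126 CPM in normoxia and 331, 344 and 344 CPM in hypoxia. COL5A1, of fibrils, was at 33.2, 29.3 and 33.1 CPM in normoxia and 89.6, 89.03 and 90.2 CPM in hypoxia. No hypoxia library of these 3 genes fell below a normoxia library. These are long transcripts, and with the length offset their changes were 1.88, 1.22 and 1.30 against 2.05, 1.49 and 1.48. FN1, fibronectin, was at 339, 334 and 347 CPM in normoxia and 1375, 1394 and 1307 CPM in hypoxia (2.00 ± 0.038, and 1.67 with the length offset). Of 20 modifying enzymes 12 rose and 2 fell. PLOD2, whose lysyl hydroxylation sets the type of crosslink, rose by 1.63 ± 0.037 and PLOD1 by 0.98 ± 0.041, and PLOD2 made up 33.6% to 36.8% of the pair per kilobase in normoxia and 44.6% to 46.5% in hypoxia. The prolyl hydroxylase genes P4HA1 and P4HA2 rose by 1.22 ± 0.038 and 0.97 ± 0.044, and LOXL2, a lysyl oxidase, by 0.99 ± 0.036.

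Of 16 integrin genes 13 rose and 2 fell, with ITGA5, of the fibronectin receptor, at 68.5, 59.8 and 67.1 CPM in normoxia and 123, 122 and 119 CPM in hypoxia and ITGB4, of hemidesmosomes, up by 1.47 ± 0.11. Of 15 metalloproteinase and TIMP genes 8 rose and 3 fell: the collagenase MMP1 was at 1054, 1025 and 1056 CPM in normoxia and 1638, 1701 and 1696 CPM in hypoxia, MMP14, the membrane-bound activator, rose by 0.66 ± 0.037 and MMP3 by 0.84 ± 0.089. Of 18 vessel-directed ligands and their receptors 13 rose and 1 fell. ANGPTL4, which inhibits lipoprotein lipase, was at 0.831, 0.631 and 0.539 CPM in normoxia and 9.74, 10.1 and 11.05 CPM in hypoxia, ADM, a vasodilator peptide, rose by 1.12 ± 0.047, EDN1, endothelin, by 1.00 ± 0.059 and PDGFB by 1.13 ± 0.10, and ANGPT1 fell (-0.87 ± 0.24). Of 13 mesenchymal markers and factors 5 rose and 3 fell, against 32.4% each way over all genes tested. VIM rose by 0.67 ± 0.037, while TAGLN, an actin binder, fell (-0.68 ± 0.057).

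Cholesterol genes rose in 20 of 26 and fell in 4, and with the length offset 22 rose and 0 fell. INSIG1, which retains the SREBP factors, was at 18.1, 17.3 and 17.7 CPM in normoxia and 46.9, 46.8 and 49.5 CPM in hypoxia. INSIG2, with the same role, was at 18.8, 20.4 and 21.3 CPM in normoxia and 46.4, 52.6 and 44.5 CPM in hypoxia. NSDHL and PMVK, of the synthesis route, fell (-0.32 ± 0.045 and -0.43 ± 0.047) before the offset. Fatty acid and droplet genes rose in 14 of 26 and fell in 5: SCD, the stearoyl-CoA desaturase, was at 192, 198 and 189 CPM in normoxia and 433, 445 and 416 CPM in hypoxia, and the elongase ELOVL6 fell (-0.57 ± 0.043). NRF2 targets fell in 7 of 15 and rose in 2, with NQO1, a quinone reductase, at 181, 177 and 182 CPM in normoxia and 103, 101 and 103 CPM in hypoxia and the drug exporter ABCC1 up by 0.63 ± 0.049. Of 12 iron genes 2 rose and 5 fell, against 32.4% each way over all genes tested, but 5 rose and 4 fell with the length offset, and 4 and 4 with library totals. Among them were STEAP3, a ferrireductase, at 0.63 ± 0.039 and NCOA4, the ferritinophagy receptor, at -0.46 ± 0.037. The metallothionein MT2A rose by 0.54 ± 0.061.

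Interferon-stimulated genes fell in 14 of 24 and rose in 3. IFIT1, a sensor of viral RNA caps, was at 34.3, 36.97 and 32.4 CPM in normoxia and 16.4, 16.1 and 15.96 CPM in hypoxia, OASL fell (-0.98 ± 0.080), as did USP18, which restrains the interferon receptor (-0.96 ± 0.18). ISG20, an exonuclease, rose, at 5.50, 6.73 and 5.86 CPM in normoxia and 16.1, 15.3 and 16.2 CPM in hypoxia. With the length offset 12 fell and 4 rose. Of 16 genes of class I antigen presentation 6 rose and 6 fell, near the 32.4% each way over all genes tested, and 9 rose and 5 fell with the length offset. TAPBP, tapasin, and HLA-B rose by 0.44 ± 0.052 and 0.43 ± 0.052, while the light chain gene B2M fell (-0.49 ± 0.066). Of 22 NF-kB targets and cytokines 6 rose (27.3%) and 3 fell (13.6%), below the 32.4% each way over all genes tested. Among them was TNFAIP3, an inhibitor of the pathway, at 10.6, 8.91 and 9.09 CPM in normoxia and 22.8, 22.7 and 22.7 CPM in hypoxia. With the length offset 13 of these genes rose and 2 fell.

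Of 22 Jumonji demethylase genes, whose enzymes need oxygen, 19 rose and 1 fell (median 0.64, and 0.44 with the length offset). KDM3A, which removes H3K9 methylation, was at 77.3, 76.2 and 77.2 CPM in normoxia and 206, 212 and 209 CPM in hypoxia, KDM6B, for H3K27, rose by 1.34 ± 0.091 and KDM4B by 1.30 ± 0.054. RIOX2, a ribosomal oxygenase of the same fold, fell and was at 98.5, 90.5 and 92.1 CPM in normoxia and 46.2, 47.5 and 48.6 CPM in hypoxia. Of 18 m6A genes 11 rose and 4 fell. The methyltransferase core fell, METTL3 (-0.51 ± 0.041) and METTL14 (-0.47 ± 0.043), while RBM15, an adaptor of the complex, and ALKBH5, an oxygen-dependent eraser, rose by 0.61 ± 0.070 and 0.53 ± 0.049. Of 26 splicing genes 8 rose and 12 fell, against 32.4% each way over all genes tested, but 12 rose and 10 fell with library totals. Among them were SRSF3 at 639.5, 654 and 634 CPM in normoxia and 389.8, 372 and 387 CPM in hypoxia, SRSF7 at -0.69 ± 0.042 and PNISR at 0.65 ± 0.036. C2H2 zinc finger genes named ZNF rose in 160 of 444 (36.0%) and fell in 73 (16.4%), against 32.4% each way over all genes.

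Noncoding transcripts were counted by type. Antisense transcripts rose in 264 of 660 (40.0%) and fell in 39 (5.91%), lincRNAs in 228 and 59 of 660, and protein-coding genes in 4132 and 4619 of 12657. Levels differ between the types, and within 1 to 10 CPM the shares of genes higher were 49.4% of 235 antisense transcripts, 41.8% of 239 lincRNAs and 35.8% of 3252 protein-coding genes. MALAT1, a nuclear RNA of speckles, rose and was at 37.8, 40.8 and 39.4 CPM in normoxia and 172, 183 and 203 CPM in hypoxia. NEAT1, the scaffold of paraspeckles, rose and was at 16.1, 17.1 and 15.7 CPM in normoxia and 49.5, 54.9 and 56.7 CPM in hypoxia. LUCAT1, a stress-induced lncRNA, rose by 1.71 ± 0.10. The snoRNA host GAS5 and DANCR fell (-0.60 ± 0.039 and -0.90 ± 0.078). Antisense transcripts share reads with the opposite strand if counting ignored strand, which the sources used here do not settle.

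A few genes were all but silent in normoxia and appeared in hypoxia. With at most 3 counts over the 3 normoxia libraries and at least 0.5 CPM in hypoxia, there were 6, chosen after their values were seen: ZP1, PTPRN, MIR193BHG, GOLGA6L7P, MIR125B1 and AC010834.3. ZP1, an egg-coat glycoprotein gene, had 0, 0 and 3 counts in normoxia and 64, 50 and 59 in hypoxia. PTPRN, a receptor phosphatase of secretory granules, had 1, 0 and 0 counts and then 30, 12 and 39. With 3 counts put in place of the 1 count of the normoxia group, PTPRN was 17.8-fold higher as a share of all counts. That value takes the hypoxia counts as exact and is not a lower bound. No gene met the reverse rule. The hypoxia group held 105773881 counts against 69885949 in normoxia, so 3 counts are a smaller share there and the reverse rule was stricter.

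The largest decreases were smaller. Among genes with at least 5 CPM in normoxia and even replicates HIF1A led. SCG2, secretogranin, was at 12.9, 12.4 and 11.5 CPM in normoxia and 6.41, 6.17 and 4.99 CPM in hypoxia. SMARCD3, a chromatin remodelling subunit, was at 7.91, 7.72 and 7.04 CPM in normoxia and 3.43, 2.86 and 3.74 CPM in hypoxia. GBP1, an interferon-induced GTPase, was at 31.6, 27.8 and 27.2 CPM in normoxia and 13.7, 14.7 and 13.6 CPM in hypoxia. TMEM38B, a potassium channel of the endoplasmic reticulum, fell (-1.11 ± 0.074). In each of these the normoxia libraries lay above the hypoxia libraries. AC217777.1 and SERF1B had the largest fitted falls among genes with at least 5 CPM in normoxia, but their normoxia replicates were uneven. Below that level PTGES, a prostaglandin E synthase named after its values were seen, was the gene at least 8-fold lower, at 4.86, 4.07 and 3.88 CPM in normoxia and 0.365, 0.482 and 0.586 CPM in hypoxia (-3.17 ± 0.19). AC217777.1 was at 8.46, 12.9 and 1.58 CPM in normoxia and 1.44, 0.994 and 0.893 CPM in hypoxia. SERF1B, which has a near-identical copy and so an uncertain count, was at 22.98, 79.5 and 8.51 CPM in normoxia and 6.77, 6.78 and 6.39 CPM in hypoxia. Without normoxia replicate 2 the log2 fold change of SERF1B was -1.23 in place of -2.32, and that of AC217777.1 was -2.13 in place of -2.61. Without normoxia replicate 3 they were -2.86 and -3.20. In absolute CPM the gains were largest in NDRG1, MYH9 (3108 to 4884 CPM), LDHA, MSN, MKI67, DYNC1H1 (568 to 1642 CPM) and FN1, and the losses in HSP90AA1, HSPA8, NPM1, EEF1A1, HSP90AB1 and RPL5. MYH9 and DYNC1H1 encode heavy chains of myosin and dynein and have long transcripts, with changes of 0.56 and 0.90 with the length offset against 0.65 and 1.53.

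In 3624 of 15648 genes (23.2%) the response to hypoxia differed between shControl and shRIPOR3 cells by the interaction test. The 15 genes with the largest interaction statistic were chosen by that statistic, so their values describe them. IGFBP3 rose by 1.97 ± 0.038 in shControl and changed by 0.19 in shRIPOR3, FAM162A, a mitochondrial protein of hypoxic cell death, rose by 1.24 ± 0.041 and changed by -0.01, and MMP1 rose by 0.68 ± 0.038 and changed by -0.29. NOL6, a nucleolar protein, fell (-0.59 ± 0.039) in shControl and changed by 0.29 in shRIPOR3. PGK1, the glycolytic phosphoglycerate kinase, rose by 1.25 ± 0.036 in shControl and by 0.44 in shRIPOR3. Of 20 glycolytic genes 12 had an interaction call, of 17 oxygen-sensing genes 4 and of 82 cytosolic ribosomal proteins 12. CA9 rose in both lines, by 6.82 and 5.46, with no call of a difference (interaction adjusted p = 0.517 in edgeR).

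**Figure D5:**
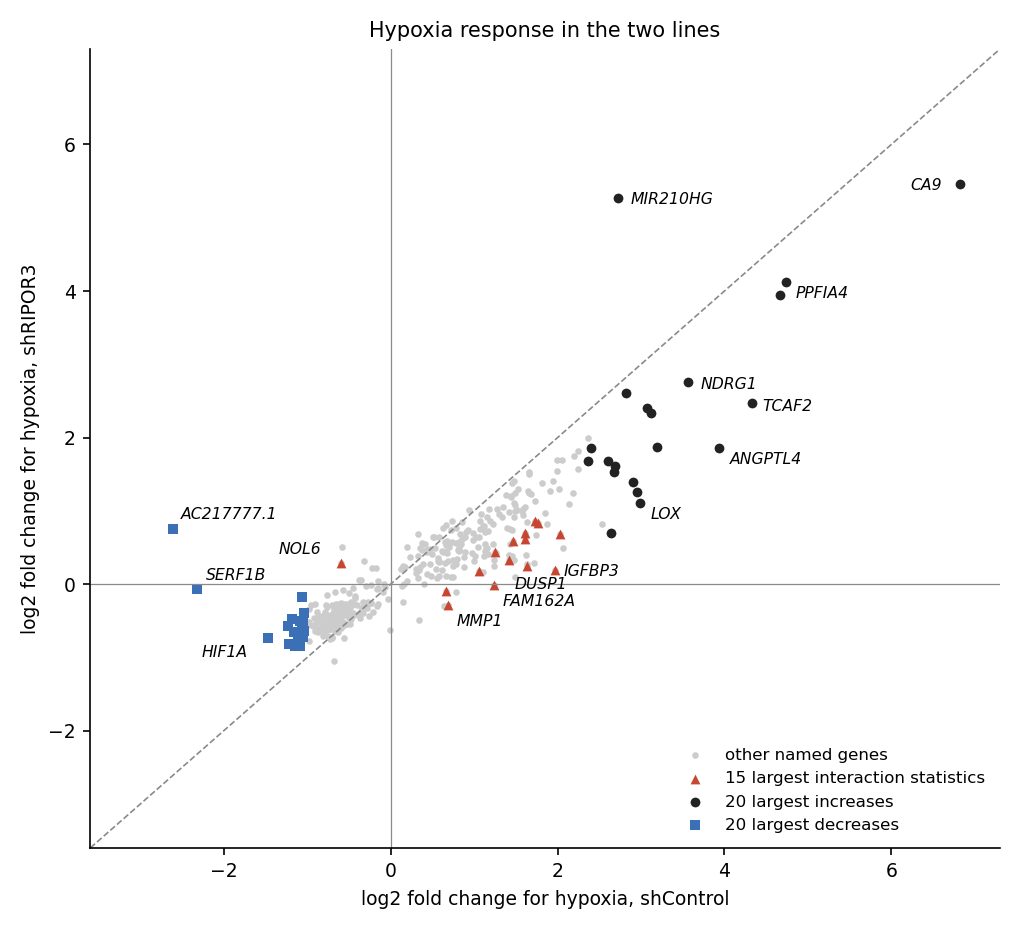
Log2 fold change for hypoxia in shControl (x axis) and in shRIPOR3 (y axis) for the named genes, with the dashed line at equal response. Black circles and blue squares mark the 20 largest increases and decreases in shControl, chosen by their values on the x axis, and red triangles the 15 genes with the largest interaction statistic, such as IGFBP3 and FAM162A near 0 on the y axis; MIR210HG lies above the line.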

How the data were processed

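RNA from 6 shControl libraries (TRIzol, a stranded mRNA kit) was compared at 1% O2 and in normoxia. The deposited values are raw counts per gene symbol, which the authors made with fastp 0.23.4, STAR 2.5.3a and featureCounts on GRCh38, per the submitters' processing notes. For the annotation, the strand setting and the featureCounts version the entry is: not given in the sources used here. A spreadsheet had turned 24 symbols into dates (0.2% of counts), and these are not named.

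A single edgeR fit (version 4.0.16, under R 4.3.3) took all 12 libraries, 4 group coefficients, TMM scaling, filterByExpr and the quasi-likelihood F-test, with Benjamini-Hochberg adjustment over 15648 of 24641 symbols at 0.05. Intervals cover 95%. The fit was first run on simulated counts with planted changes in few genes, with or without a length trend. That does not test the scaling under a response as broad as this one. Exon lengths and gene types came from GENCODE 29, promoters from RefSeq on GRCh38.p14. DESeq2 1.42.0, other scalings and filters, thinning, a replicate block and leaving out each library were tried. The length offset was chosen after seeing the data.

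The members and gene lists were chosen with earlier results of these data known. Named genes are the 20 largest increases and decreases (at least 5 CPM in the higher group, no overlap), the 10 largest gains and losses of CPM, up to 5 called members per list and up to 2 against its direction, all oxygen-sensing and PFKFB and PDK genes, set paralogue pairs and the 15 largest interaction statistics. Any may be left out.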

Additional observations from a re-analysis of the deposited data

Results flagged for a closer look

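The interaction test called 3624 genes whose response to hypoxia differed between shControl and shRIPOR3 cells. The 15 below had the largest statistic among genes called in shControl, so they were chosen by the values given. Each value is the log2 fold change in shControl minus that in shRIPOR3. The difference was 1.78 for IGFBP3, 1.38 for DUSP1, 1.35 for NOG, a BMP antagonist, and 1.25 for FAM162A. It was 1.10 for TUBGCP2, a subunit of the gamma-tubulin complex, 1.00 for PAM, which amidates peptides, and 0.972 for MMP1. It was 0.926 for the taurine transporter gene SLC6A6, 0.907 for PLAT, tissue plasminogen activator, 0.884 for LIMCH1 and 0.877 for ERRFI1, an inhibitor of EGFR. It was 0.871 for HIVEP2, 0.808 for PGK1, 0.762 for MXRA7 and -0.885 for NOL6. All but NOL6 had the higher log2 fold change in shControl. The lines differ in their hairpin, and an effect of lowering RIPOR3 and any other difference between the lines cannot be told apart with 1 hairpin each.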

How the results depend on the processing

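Against 10143 genes called in edgeR, DESeq2 called 9394, and leaving out 1 library at a time gave 9393 to 10251. Genes at least 2-fold lower numbered 112, but 64 with library totals, 45 with at least 1 CPM in 3 libraries and 56 with the length offset. The interaction count of 3624 was 2185 at an adjusted p under 0.01. Among tested genes with a single promoter entry, 62.9% of those at least 4-fold higher held a core and 40.3% held ACGTG alone. Over all tested genes with such an entry these shares were 63.9% and 27.6%. With the 250 bases before the start alone, 58.4% of these held a core.

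Among named genes, 7 turned sign under some setting. Those of NSDHL (-0.32), MPC1 (-0.29) and HIF1AN (-0.096) had been called as falls, and those of LDHB (-0.34), ARNT, PDK2 and PDK4 had not. With library totals the log2 fold change was 0.04669 for ARNT, 0.01443 for HIF1AN, 0.03015 for PDK2 and 0.1006 for PDK4. With thinning to one total it was 0.104 for LDHB, 0.02047 for PDK2 and 0.03948 for PDK4, and with upper-quartile scaling 0.007465 for PDK4. Leaving out 1 library put PDK4 between -0.1078 and 0.1266. With the length offset it was 0.07919 for MPC1, 0.01219 for NSDHL, 0.007485 for PDK2 and 0.1267 for PDK4. The cause was not tested. COL1A1 lost its call in DESeq2 (adjusted p = 0.0708) and without normoxia replicate 1 (edgeR adjusted p = 0.294) or hypoxia replicate 1 (0.14).

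Same-numbered libraries did not deviate together (median r of 0.013 over 18 pairs, from -0.0358 to 0.0676), so the numbers were not taken to pair them. With the replicate number as a block 10113 genes were called, 10035 of them shared in direction. Genes under 1 CPM rest on few reads: RIPOR3 had 17 counts over the normoxia group and 81 over the hypoxia group.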
